A study of Mus musculus with 10 samples.

Results

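Germinal centre (GC) B cells of the V23 heavy chain transgenic line were compared with naive B cells. The comparison used 7 of the 10 arrays of the series, the 3 titled as day 14 GC V23 and the 4 titled as naive, chosen by title alone. The V23 mice were on the Balb/c background, carried the V23 immunoglobulin heavy chain transgene and lacked the endogenous JH locus (JH KO). They were given 50 µg of NP-CGG with alum by the intraperitoneal route, the hapten NP being coupled to chicken gamma globulin, and splenocytes that were λ+ PNA+ B220+ were sorted 14 days later. Mice of the other GC group, B1-8, carried the VH186.2 heavy chain transgene on the same JH KO Balb/c background and had the same immunization, day and sort. Naive B cells came from spleens labelled as those of unimmunized Balb/c mice. Every suspension was held cold with sodium azide, and labelled cRNA was hybridized to Affymetrix Mouse 430 2.0 arrays. Immunization, the transgene with the JH deletion, and the stain used for sorting differ together between the groups, so their effects cannot be told apart. The labels do not say that replicates are separate animals, so the p-values describe the spread among these samples, which may be technical.

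The GC is the structure in which B cells that have met antigen divide, mutate their immunoglobulin genes and compete for T cell help. The V23 heavy chain, paired with a λ light chain, binds the hapten NP with lower affinity than the B1-8 heavy chain of the other GC group. Naive B cells are small resting cells that recirculate between blood and follicles under the control of chemokine and sphingosine phosphate receptors, and GC B cells are large dividing cells that stay within the follicle. Peanut agglutinin (PNA), a lectin that binds exposed galactose on sugar chains, marks GC B cells in the mouse.

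Each gene symbol was represented by its brightest probe set among those assigned to 1 symbol, and 17204 genes were tested. Levels are log2 signals per array, differences are V23 mean minus naive mean on the log2 scale ± standard error, and adjusted p-values are limma's with Benjamini-Hochberg adjustment over all tested genes (n = 3 V23 and 4 naive arrays). A gene is said to have risen or fallen where the adjusted p was under 0.05. V23 cells differed from naive cells in 37.9% of genes, with 18.2% higher (3127 genes) and 19.7% lower (3386 genes), and the median difference of all genes was 0.06. A change of at least 2-fold was present for 1168 higher genes (6.79%) and 1546 lower genes (8.99%). Centring each array on its median moved the median difference of all genes to 0.21 and the split to 4070 higher and 2517 lower, and quantile normalization gave 0.14 with 3747 higher and 2951 lower. The shares of 18.2% higher and 19.7% lower are the background for the family counts below. For family counts after centring or quantile normalization, the background is the split of that setting. In whole-population RNA, fewer cells of a type and less RNA per cell cannot be told apart.

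B cell markers were bright in both groups. Of 9 tested B cell markers none rose, 5 fell, and their summed signal was between 16.71 and 16.86 on the naive arrays and between 16.34 and 16.59 on the V23 arrays, so that the groups did not overlap but lay close. Only 1 of these markers fell after centring, and 1 fell without naive arrays 2 and 4. All 12 neutrophil markers rose. The summed signal of the neutrophil list lay between 11.57 and 13.83 in naive cells, where array 4 was highest, and between 15.24 and 15.82 in V23 cells. S100a8, which neutrophils hold in large amounts, had levels of 10.32, 10.74, 9.87 and 12.15 on the naive arrays and 13.81, 13.39 and 13.84 on the V23 arrays. The summed signal of the macrophage list overlapped (11.52 to 12.78 in naive, 11.96 to 12.58 in V23), with Lyz2 its brightest member in V23 cells. Of its 12 tested members 5 fell (41.7%, beside 19.7% of all genes) and 1 rose (8.3%, beside 18.2%). The means of the macrophage list did not overlap, at 7.47, 7.54, 7.23 and 8.48 in naive cells and 6.68, 6.72 and 6.92 in V23 cells. C1qc was below log2 4 on all V23 arrays. The T cell list spanned 11.37 to 11.95 in naive and 10.87 to 11.55 in V23 cells. The marginal zone B cell list fell from 15.85 to 15.96 in naive cells to 14.12 to 14.42 in V23 cells, with 9 of 10 members lower. The summed signal was also lower on every V23 array for NK cells (10.75 to 11.34 in naive, 9.84 to 9.995 in V23). The same held for stromal and follicular dendritic cells (11.11 to 11.61, then 10.50 to 10.83). Erythroid cells (9.24 to 10.37, then 8.36 to 9.17) and platelets (11.13 to 11.52, then 11.03 to 11.09) were lower in this way too. The dendritic cell list overlapped (9.52 to 10.31 in naive, 10.12 to 10.48 in V23). RNA quality moved with the groups as well: the Actb 3′ minus 5′ probe set difference was 1.65, 1.56, 1.39 and 1.27 on the naive arrays and 0.71, 0.87 and 0.74 on the V23 arrays (exact two-sided permutation test, p = 0.0286, which is the lower limit with 35 splits, and adjusted p = 0.0286 over 2 such measures). The part of these marker and RNA quality differences in the results that follow was not tested.

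**Figure D1:**
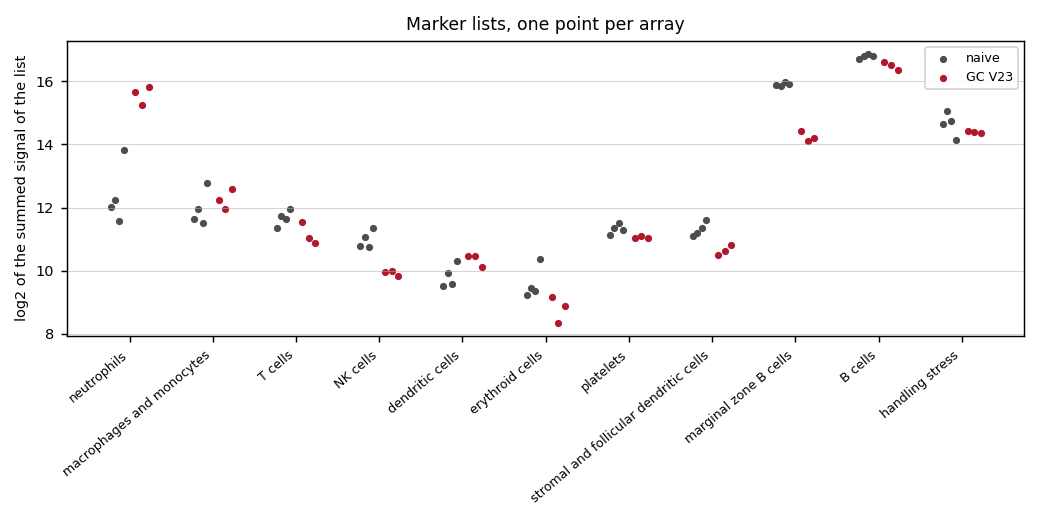
Log2 of the summed signal of each marker list, one point per array, for 4 naive arrays (grey) and 3 GC V23 arrays (red). The neutrophil list lies between 15.24 and 15.82 on the V23 arrays, above every naive array, and the marginal zone list lies between 14.12 and 14.42, below every naive array. The B cell, NK cell, stromal and follicular dendritic cell, erythroid and platelet lists also lie below every naive array.

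The 12 genes with the highest differences included genes known from GC B cells and from cell division. Gcsam (probe set 1420544_at), a GC B cell adaptor that restrains cell movement, had levels of 5.25, 8.52, 5.25 and 7.25 on the naive arrays and 12.12, 12.11 and 12.07 on the V23 arrays. The V23 arrays were all above the naive arrays, among which arrays 2 and 4 were highest. The difference was 5.53 ± 0.73 (adjusted p = 0.00044). Kcnn4 (1435945_a_at), a calcium-activated potassium channel, had levels of 4.32, 5.07, 4.11 and 5.36 in naive cells and 9.78, 10.09 and 9.64 in V23 cells, a difference of 5.13 ± 0.29 (adjusted p = 8.09e-06). Gpsm2, which orients the mitotic spindle, was at 1.96, 6.53, 2.96 and 4.65 in naive cells and at 9.89, 10.27 and 10.55 in V23 cells. With values under log2 4 raised to 4, its difference was 5.44, against 6.21 ± 0.92 as deposited. The other genes of this group were Rgcc (4.72 ± 0.31), a cell cycle regulator, Sh3bgrl2 (4.55 ± 0.26), Timd2 (4.54 ± 0.64), a TIM family receptor, Mef2b (4.43 ± 0.59), a transcription factor upstream of Bcl6, Bub1b (4.23 ± 0.58), a spindle checkpoint kinase, Endou (4.19 ± 0.37) and Pipox (4.38 ± 0.68). Lcn2 (4.46 ± 0.67) and Hp (4.57 ± 0.54), genes of neutrophil granules and of the acute phase, also stood among the 12 highest, beside the rise of all 12 neutrophil markers.

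The 12 genes with the lowest differences included surface proteins of naive B cells and interferon-stimulated genes. Ly6d (1416930_at), a surface protein of early and naive B cells, was at 12.97, 12.93, 13.04 and 12.96 in naive cells and at 6.29, 6.68 and 5.99 in V23 cells, a difference of -6.66 ± 0.23 (adjusted p = 1.37e-06). Gpr34 (1422542_at), a lysophosphatidylserine receptor, was at 10.59, 10.15, 10.41 and 10.81 in naive cells and at 2.14, 3.09 and 2.46 in V23 cells. Its difference was -7.93 ± 0.72 as deposited and -6.49 with values under log2 4 raised to 4. Rtp4 (-6.22 ± 0.35) and Ifi44l (-6.36 ± 0.68) are interferon-stimulated genes, and so is Pml (-5.48 ± 0.44), which builds nuclear bodies. Cd1d1, which presents lipids and marks marginal zone B cells, was at 12.12, 11.80, 12.01 and 11.87 in naive cells and at 6.49, 6.57 and 6.48 in V23 cells, a difference of -5.44 ± 0.17. Tbx3 (-6.11 ± 0.26), a T-box transcription factor, Cobll1 (-5.98 ± 0.39), Tmem163 (-6.30 ± 0.52), the calcium channel subunit Cacna1e (-5.39 ± 0.26), the lipid phosphatase Plpp3 (-5.43 ± 0.63) and Tdrd7 (-5.19 ± 0.34) completed this group.

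**Figure D2:**
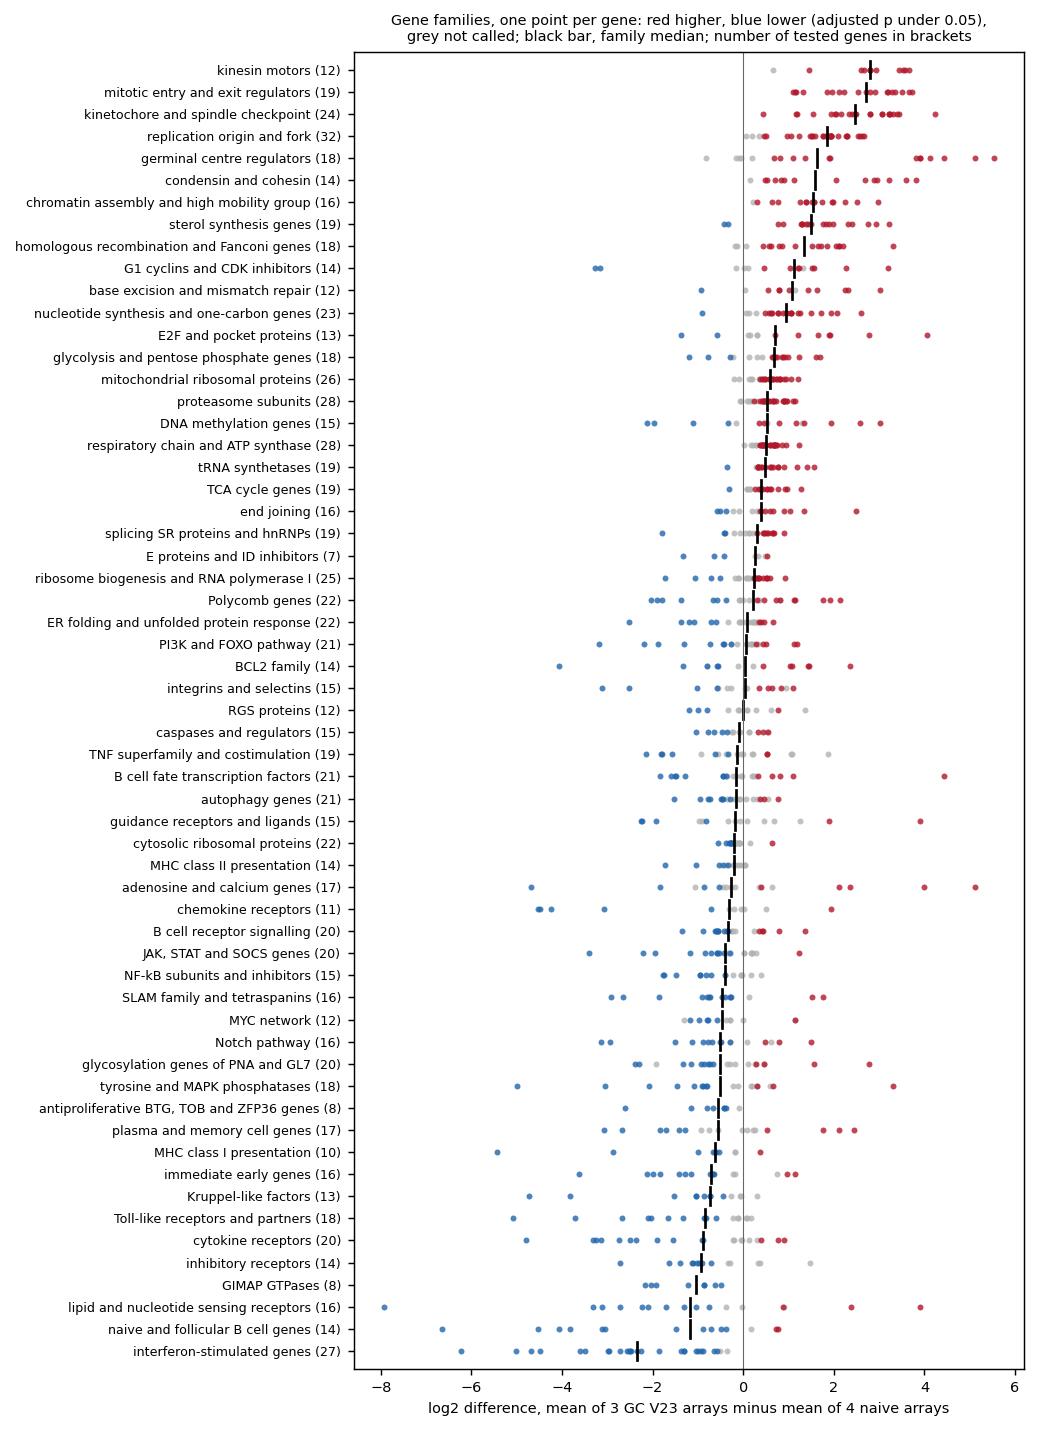
Log2 difference (V23 minus naive) of each tested gene in 59 gene families, sorted by family median; red, higher and blue, lower at an adjusted p under 0.05, grey, not called, black bar, family median. Kinesins, mitotic regulators and kinetochore genes lie at the top with medians of 2.80, 2.70 and 2.48, and interferon-stimulated genes at the bottom with a median of -2.34.

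Of 18 tested GC regulators, 13 rose and none fell, with a median difference of 1.62 beside 0.06 for all genes. S1pr2, a sphingosine phosphate receptor that confines B cells to the GC, was at 7.70, 9.87, 7.88 and 8.53 in naive cells and at 12.27, 12.51 and 12.39 in V23 cells, a difference of 3.90 ± 0.46 (adjusted p = 0.000242). Bcl6, the repressor on which the GC program depends, was at 11.39, 11.99, 11.88 and 11.85 in naive cells and at 12.83, 12.87 and 12.89 in V23 cells. That difference of 1.09 ± 0.14 (adjusted p = 0.000361) was smaller than those of Mef2b and of Mybl1 (4.13 ± 0.44), a MYB family factor, although no naive array reached a V23 array. Ezh2, the Polycomb methyltransferase, rose by 1.92 ± 0.19, Plxnb2, a plexin of GC B cells, by 3.89 ± 0.51, the death receptor Fas by 1.36 ± 0.19 and Bach2, a repressor of plasma cell fate, by 0.82 ± 0.09. Rgs13, a regulator of chemokine signalling known from GC B cells, had similar levels in both groups, 13.16 to 13.21 in naive and 13.03 to 13.15 in V23 cells (-0.09 ± 0.09, adjusted p = 0.471). Naive array 2 had the highest mean over the GC regulators (10.63, against 9.46, 9.59 and 9.87 on the other naive arrays and 11.91 to 12.03 on the V23 arrays). Without naive arrays 2 and 4 the same number, 13 of the 18, rose and the median of the germinal centre regulators was 1.83.

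Naive and follicular B cell genes moved the other way, with 11 of 14 lower, 2 higher and a median of -1.18. Bcl2, which protects resting B cells from death, was at 12.01, 11.80, 12.04 and 11.93 in naive cells and at 8.27, 7.82 and 7.52 in V23 cells (-4.07 ± 0.19, adjusted p = 3.68e-06). Klf2, a quiescence factor that drives S1pr1, was at 12.11, 12.09, 12.07 and 11.74 in naive cells and at 8.30, 8.29 and 7.96 in V23 cells (-3.82 ± 0.21). Foxp1, a B cell transcription factor, fell by 1.49 on the log2 scale (± 0.11), and Cr2, the complement receptor of mature B cells, by 0.88 (± 0.10). Foxo1, which supports the GC dark zone, differed by 0.17 ± 0.09 (adjusted p = 0.152), and after median centring it was called higher (0.32, adjusted p = 0.0499). Among activation markers, Cd83 rose by 0.32 ± 0.08 and Cd86 by 0.53 ± 0.13, while Cd40 differed by -0.62 ± 0.18 (adjusted p = 0.0215). The Cd83 call was lost without V23 array 2 (0.28, adjusted p = 0.0545) and the Cd40 call without V23 array 1 (-0.58, adjusted p = 0.0674), V23 array 3 (-0.60, adjusted p = 0.0655) or naive array 4 (-0.58, adjusted p = 0.0503). Quantile normalization also ended the Cd83 call (0.22, adjusted p = 0.0932). Median centring (-0.48, adjusted p = 0.0617) and leaving out naive arrays 2 and 4 (-0.62, adjusted p = 0.0882) ended that of Cd40. The replicate block, a fit that also leaves out naive array 4, ended the Cd40 call as well (-0.58, adjusted p = 0.0747).

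**Figure D3:**
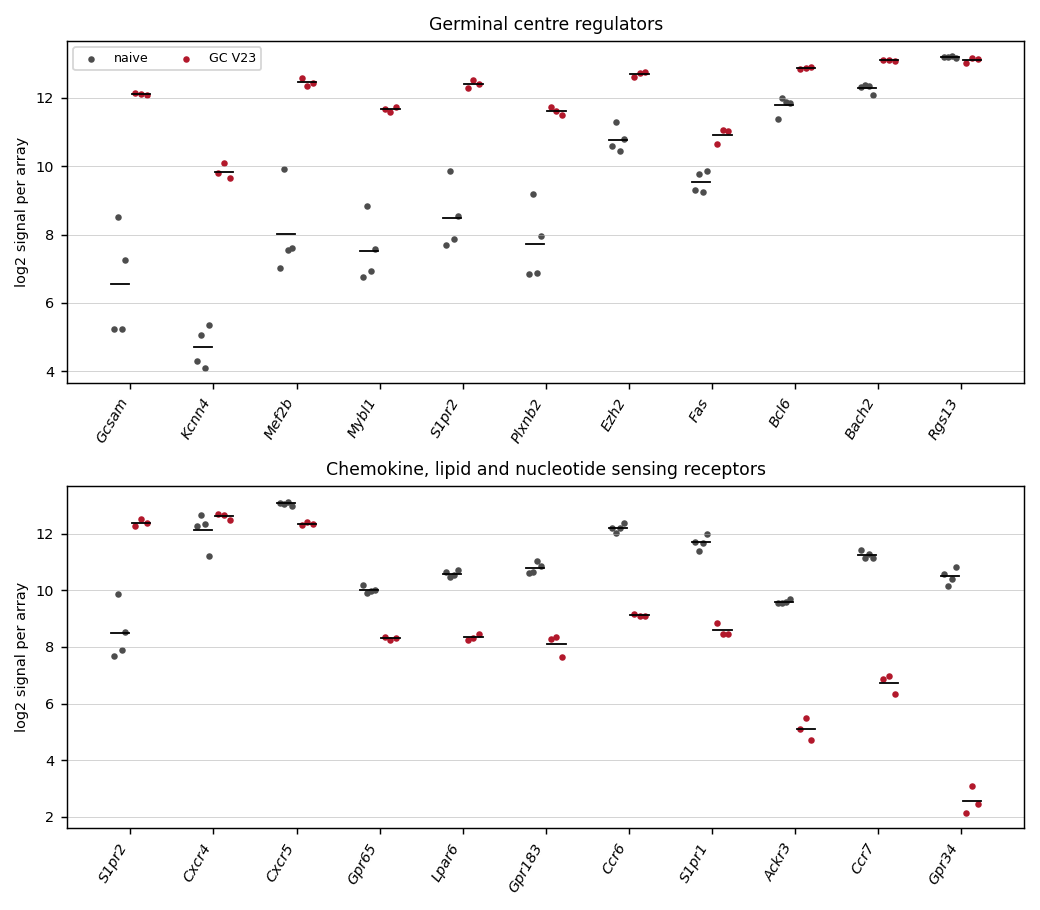
Log2 signal of GC regulators (top) and of chemokine, lipid and nucleotide receptors (bottom) on 4 naive arrays (grey) and 3 GC V23 arrays (red), one point per array, black bar, group mean. Gcsam and Kcnn4 show wide gaps between the groups, Rgs13 a small one that was not called, and Gpr34, Ccr7 and Ackr3 show the widest gaps downward.

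Genes of cell division rose nearly as whole families. All 24 tested kinetochore and spindle checkpoint genes rose (median 2.48), as did all 19 mitotic entry and exit regulators (2.70) and 11 of 12 kinesin motors (2.80), where 18.2% of all genes rose. Cdk1, the kinase of mitotic entry, was at 8.32, 9.48, 8.45 and 8.76 in naive cells and at 12.03, 12.08 and 12.22 in V23 cells, a difference of 3.36 ± 0.25. Cenpa, the histone of centromeres, was at 9.81, 9.999, 10.004 and 10.14 in naive cells and at 12.22, 12.10 and 12.10 in V23 cells (2.15 ± 0.10, adjusted p = 2.8e-06). Aurka, a spindle pole kinase, rose by 2.81 ± 0.19, Kif22, a chromosome-carrying kinesin, by 2.81 ± 0.21, and Kifc1, a minus-end motor, by 2.79 ± 0.19. For Tpx2 (3.67 ± 0.26), an activator of Aurka, some probe sets of the same gene lay the other way (-0.78 and -0.68). Naive array 2 had the highest naive mean over the mitotic entry and exit regulators, 9.76 against 8.87, 8.98 and 9.33 on the other naive arrays, and the V23 means were 11.73, 11.74 and 11.78. Without naive arrays 2 and 4 all 19 mitotic entry and exit regulators rose, with a median of 3.09.

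Promoters of mitosis genes are shown because these families moved together and are known to share promoter elements. RefSeq promoters (GRCm38.p6, 250 bases before to 50 after the start) were matched for 46 of the 55 genes of these 3 families. TTTGAA, the core of the cell cycle homology region, was present on either strand in 26 (56.5%) against 15.6% of the 13690 tested genes with a promoter, and CCAAT in 33 (71.7%) against 42.0%. Of 26 matched replication genes, 4 (15.4%) held TTTGAA. Below, the 150 bases before the start are printed for genes chosen after their matches were seen, with CCAAT and TTTGAA, in either orientation and without overlap, in capitals. Aurka lies at chr2:172370571-172370720 (minus strand), Cenpa at chr5:30666736-30666885 (plus), Kif22 at chr7:127042421-127042570 (minus) and Kifc1 at chr17:33890634-33890783 (minus).
Aurka: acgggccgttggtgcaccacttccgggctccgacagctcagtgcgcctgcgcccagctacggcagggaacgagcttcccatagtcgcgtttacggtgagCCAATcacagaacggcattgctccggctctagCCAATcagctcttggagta
Cenpa: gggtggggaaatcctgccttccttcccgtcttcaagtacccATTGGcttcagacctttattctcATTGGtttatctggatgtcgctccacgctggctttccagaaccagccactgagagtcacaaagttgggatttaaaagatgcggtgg
Kif22: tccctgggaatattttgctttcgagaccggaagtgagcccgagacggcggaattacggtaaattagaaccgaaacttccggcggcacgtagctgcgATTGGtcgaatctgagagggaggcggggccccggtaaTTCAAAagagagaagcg
Kifc1: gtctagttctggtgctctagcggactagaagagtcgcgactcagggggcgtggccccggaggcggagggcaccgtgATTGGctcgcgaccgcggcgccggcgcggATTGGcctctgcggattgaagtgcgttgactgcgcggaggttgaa
Aurka, Cenpa and Kifc1 each hold a pair of CCAAT matches in this stretch, and Kif22 holds CCAAT and TTTGAA. A match describes the letters of the window and was not tested as a binding site.

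Condensin and cohesin genes rose in 13 of 14 cases (median 1.59), among them Smc2, a condensin ATPase (2.05 ± 0.15), and Ncapg2, a condensin II subunit (2.90 ± 0.22). Of 32 genes of the replication origin and fork 29 rose (median 1.86). Lig1, which seals Okazaki fragments, was at 9.77, 10.56, 10.05 and 10.11 in naive cells and at 12.83, 12.77 and 12.66 in V23 cells (2.63 ± 0.18). Rfc3, a clamp loader subunit (2.29 ± 0.15), Orc1 (1.86 ± 0.13) and Orc6 (1.53 ± 0.10), subunits of the origin recognition complex, rose too. The Orc1 call was lost with the mean of its probe sets (1.37, adjusted p = 0.0692). Chromatin assembly and high mobility group genes rose in 15 of 16 cases (median 1.54), with Chaf1b, which loads histones behind the fork, at 2.52 ± 0.20 and Hmgb3 at 2.24 ± 0.17.

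Regulators of the G1 phase split by gene. Ccnd2, the D cyclin of resting and newly activated B cells, was at 12.36, 12.28, 12.20 and 12.15 in naive cells and at 9.17, 9.07 and 9.03 in V23 cells (-3.16 ± 0.09, adjusted p = 8.27e-07). Cdkn1b, the p27 inhibitor of cyclin-dependent kinases, was at 11.93, 11.67, 11.62 and 11.82 in naive cells and at 8.64, 8.45 and 8.39 in V23 cells (-3.27 ± 0.12). These were the only 2 of 14 G1 genes that fell (14.3%, beside 19.7% of all genes), and 8 rose (57.1%, beside 18.2%), among them Cdk4 (1.03 ± 0.09). For Ccnd3, the D cyclin known for GC B cells, the brightest probe set rose by 1.56 ± 0.13, but another lay at -2.91, and the mean of its probe sets gave -0.51. In the E2F family 7 of 13 rose and 2 fell, with the activators E2f1 (1.89 ± 0.15) and E2f2 (1.92 ± 0.14), the late repressor E2f7 (2.79 ± 0.23) and their partner Tfdp1 (1.66 ± 0.11) all higher. Homologous recombination and Fanconi genes rose in 15 of 18 cases with none lower (median 1.34), including the helicases Blm (1.72 ± 0.10) and Brip1 (2.11 ± 0.12).

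Repair genes that act on deaminated DNA, the substrate of antibody diversification, rose in 9 of 12 cases and 1 fell. Ung, the main uracil glycosylase of B cells, was at 9.28, 9.29, 9.24 and 9.18 in naive cells and at 10.74, 11.18 and 10.74 in V23 cells (1.64 ± 0.12). Mbd4, a glycosylase of mismatched thymine and uracil, was at 8.45, 9.02, 8.80 and 8.75 in naive cells and at 11.91, 11.65 and 11.79 in V23 cells (3.03 ± 0.14, adjusted p = 3.06e-06). Exo1, the exonuclease of mismatch repair, rose by 2.32 ± 0.19. Smug1, a further uracil glycosylase, was the member that fell, from 8.91, 8.96, 8.97 and 9.03 to 8.30, 7.80 and 7.98 (-0.94 ± 0.12). Polh, the translesion polymerase that mutates A and T bases, rose by 2.24 ± 0.11 on its brightest probe set, which may share sequence with other genes, while others of its probe sets gave 2.85, 5.79 and -1.38. Of 16 end joining genes 9 rose (56.2%, beside 18.2% of all genes). In that list 3 fell (18.8%, beside 19.7%, so near the background), with 1 lower after centring. H2ax, the histone marked at breaks, was highest at 2.49 ± 0.23.

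Families of biosynthesis and energy metabolism rose by smaller amounts. Nucleotide and one-carbon genes rose in 19 of 23 cases (median 0.94), with the ribonucleotide reductase subunit Rrm1 at 2.08 ± 0.12 and the mitochondrial serine and folate enzymes Shmt2 and Mthfd1l at 1.26 ± 0.09 and 1.07 ± 0.07. Dhodh, the mitochondrial enzyme of pyrimidine synthesis, was the only member of this list that fell (9.42, 9.45, 9.46 and 9.63 in naive, 8.58, 8.55 and 8.61 in V23 cells, -0.91 ± 0.08). Of 18 glycolysis and pentose phosphate genes 11 rose and 3 fell. Tpi1, a triose isomerase (1.60 ± 0.10), the pyruvate kinase gene Pkm (1.23 ± 0.10) and the lactate transporter Slc16a1 (1.70 ± 0.11) rose, while the glucose transporter Slc2a1 fell, from 11.36, 11.31, 11.21 and 11.01 to 10.65, 10.30 and 10.36 (-0.79 ± 0.12, adjusted p = 0.000989). The call for Pfkp, a phosphofructokinase (0.93 ± 0.09), was lost with the mean of its probe sets (0.28, adjusted p = 0.409).

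Mitochondrial genes rose by small amounts at the median, with a spread between members. Differences ranged from 0.03 to 1.23 in the respiratory list, -0.32 to 1.28 in the TCA cycle and -0.21 to 1.21 among mitochondrial ribosomal proteins. Respiratory chain and ATP synthase subunits rose in 23 of 28 cases with none lower (median 0.50), TCA cycle genes in 13 of 19 with 1 lower (median 0.40), and mitochondrial ribosomal proteins in 20 of 26 with none lower (median 0.60). Atp5a1, an ATP synthase subunit, was at 12.28, 12.56, 12.25 and 12.46 in naive cells and at 13.61, 13.74 and 13.49 in V23 cells (1.23 ± 0.11). Sdhb, a subunit shared by the TCA cycle and the respiratory chain, rose by 1.28 ± 0.08, and the complex III core subunits Uqcrc1 and Uqcrc2 by 0.72 ± 0.08 and 0.71 ± 0.07. Dlst was the TCA cycle gene that fell (-0.32 ± 0.10, adjusted p = 0.0411). Its call was lost when B1-8 array 1 or any naive or V23 array but naive 4 was left out, at differences between -0.27 and -0.36. Median centring also ended the Dlst call, at a smaller difference (-0.17, adjusted p = 0.356). So did the replicate block (-0.35, adjusted p = 0.0789) and leaving out naive arrays 2 and 4 (-0.39, adjusted p = 0.0687). Mrpl27 (1.21 ± 0.09) and Mrps28 (1.06 ± 0.11) rose most clearly among mitochondrial ribosomal proteins, and Mrps14 (0.78 ± 0.08) had another probe set at -1.48.

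Sterol synthesis genes rose in 17 of 19 cases, with a median of 1.49. Msmo1, a sterol demethylation enzyme, was at 9.39, 9.39, 9.39 and 9.62 in naive cells and at 11.82, 11.85 and 11.90 in V23 cells (2.41 ± 0.09, adjusted p = 1.56e-06). Sqle, a rate-controlling epoxidase, was at 8.39, 8.78, 8.13 and 8.49 in naive cells and at 11.80, 11.57 and 11.64 in V23 cells (3.22 ± 0.15). Idi1, which makes the isoprenoid precursor (2.93 ± 0.14), and Cyp51, a demethylase of lanosterol (2.76 ± 0.14), rose by similar amounts. The 2 members that fell are regulators, Scap and Insig2 (named after their values were seen), with differences of -0.42 and -0.34. Neither of the 2 sterol synthesis genes fell after centring, nor without naive array 1, 2 or 4 or V23 array 2 or 3. CCAAT was present in the promoters of 15 of 16 matched sterol genes (93.8%), against 42.0% of tested genes. Several sterol genes have more than 1 promoter in the table, and counted per promoter the share was 16 of 23 (69.6%), against 37.2%. The stretches of Idi1 (chr13:8885456-8885605, plus) and Msmo1 (chr8:64733579-64733728, minus) are printed to show paired matches, with CCAAT in either orientation in capitals.
Idi1: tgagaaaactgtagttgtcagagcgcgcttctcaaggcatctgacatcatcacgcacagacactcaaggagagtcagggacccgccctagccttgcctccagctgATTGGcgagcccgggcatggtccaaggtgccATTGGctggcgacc
Msmo1: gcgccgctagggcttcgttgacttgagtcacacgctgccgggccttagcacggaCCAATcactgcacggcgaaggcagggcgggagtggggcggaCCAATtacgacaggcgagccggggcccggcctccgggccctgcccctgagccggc

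Genes of protein synthesis did not move as a block. tRNA synthetases rose in 16 of 19 cases (median 0.48), led by Aars, which charges alanine, at 10.04, 10.22, 9.999 and 10.05 in naive cells and 11.31, 11.82 and 11.83 in V23 cells (1.57 ± 0.14), and Gars, which charges glycine (1.18 ± 0.10). Vars, the valine enzyme, was the only member lower (-0.36 ± 0.10, adjusted p = 0.0246). The Vars call was lost after centring (-0.21, adjusted p = 0.248) and without naive array 2 (-0.34, adjusted p = 0.0585) or 3 (-0.30, adjusted p = 0.0612), or V23 array 1 (-0.36, adjusted p = 0.0566) or 3 (-0.32, adjusted p = 0.0816). Cytosolic ribosomal proteins lay slightly lower, with 1 of 22 higher, 7 lower and a median of -0.20. That count was not stable, since only 1 of the cytosolic ribosomal proteins fell after centring or quantile normalization and 1 to 4 fell when any naive or V23 array was left out. Rpl37 (-0.56 ± 0.13, adjusted p = 0.0106) and Rpl14 (0.64 ± 0.14, adjusted p = 0.00684) were the outermost members. Ribosome biogenesis and RNA polymerase I genes split into 12 higher and 4 lower of 25, with Nop58, a box C/D particle protein, at 0.91 ± 0.10 and Polr1b, a polymerase I subunit, at -1.07 ± 0.17. Without naive array 2, V23 array 2 or V23 array 3, 7 of the ribosome biogenesis and RNA polymerase I list rose.

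Proteasome subunits rose in 22 of 28 cases with none lower (median 0.52), including Psmd1, a regulatory particle scaffold (10.80, 10.87, 10.64 and 10.76 in naive, 11.90, 11.94 and 11.88 in V23 cells, 1.14 ± 0.08), and the catalytic-ring subunit Psmb2 (1.10 ± 0.10). Endoplasmic reticulum folding and stress genes stood at 4 higher and 6 lower of 22 (18.2% higher and 27.3% lower, beside 18.2% and 19.7% of all genes), the share higher being that of all genes. Pdia4, a disulfide isomerase, was at 10.76, 10.70, 10.66 and 10.44 in naive cells and at 8.46, 7.91 and 8.00 in V23 cells (-2.52 ± 0.19). Dnajb9, a cochaperone (-1.20 ± 0.14), and Ddit3, the CHOP stress factor (-1.38 ± 0.18), also fell, while Xbp1, the secretory cell factor, differed by 0.27 ± 0.11 (adjusted p = 0.0894). Xbp1 was called higher with an intensity trend and robust moderation in limma (0.27, adjusted p = 0.0215). The ER folding and unfolded protein response split followed the scaling, with 8 higher and 5 lower after centring and 1 higher and 6 lower after quantile normalization. Among splicing factors, 10 of 19 rose and Hnrnpa1 (13.04, 13.11, 13.39 and 13.23 in naive, 11.33, 11.41 and 11.48 in V23 cells, -1.78 ± 0.14) was the member farthest below naive cells. Autophagy genes had 3 of 21 higher (14.3%, beside 18.2% of all genes) and 8 lower (38.1%, beside 19.7%), or 5 and 4 after centring. The initiating kinase Ulk2 was lowest at -1.52 ± 0.18.

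Interferon-stimulated genes were lower in 25 of 27 cases and higher in none, with a median of -2.34 beside 0.06 for all genes. Irf9, the DNA-binding part of the interferon response complex, was at 11.52, 11.69, 11.52 and 11.58 in naive cells and at 9.25, 9.21 and 9.26 in V23 cells (-2.34 ± 0.09, adjusted p = 1.81e-06). Xaf1, a proapoptotic interferon target, was at 10.68, 10.77, 10.86 and 10.78 in naive cells and at 7.80, 7.75 and 7.89 in V23 cells (-2.96 ± 0.08, adjusted p = 8.27e-07). Rtp4 was at 11.23, 11.34, 11.21 and 11.24 in naive cells and at 4.48, 4.91 and 5.71 in V23 cells, and the antiviral GTPase Mx2 was under log2 4 on all V23 arrays (-4.68 ± 0.22 as deposited, -4.27 with values under log2 4 raised to 4). The mean of the list was 9.92, 9.93, 10.06 and 9.93 on the naive arrays and 7.65, 7.75 and 7.52 on the V23 arrays. The count lower was 24 or 25 of the 27 interferon-stimulated genes in every alternative run. The receptor chain Ifnar2 (10.39, 10.25, 10.33 and 10.67 in naive, 6.94, 7.07 and 7.24 in V23 cells, -3.32 ± 0.16) fell as well, on a probe set that may share sequence with other genes.

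The core of the interferon response element, GAAA followed after 2 bases of any kind by GAAA, was present on either strand in the promoters of 10 of 19 matched interferon-stimulated genes (52.6%), against 3.63% of tested genes, and in 10 of their 23 promoters (43.5%), against 3.01%. Ifit1 (chr19:34640739-34640888, plus; -3.50 ± 0.41) and Ifit3 (chr19:34583379-34583528, plus; -3.59 ± 0.31), antiviral RNA-binding proteins, are shown as members with a match, chosen after their values and matches were seen. Capitals mark the match, which lies on the minus strand and so reads TTTC, 2 bases, TTTC here.
Ifit1: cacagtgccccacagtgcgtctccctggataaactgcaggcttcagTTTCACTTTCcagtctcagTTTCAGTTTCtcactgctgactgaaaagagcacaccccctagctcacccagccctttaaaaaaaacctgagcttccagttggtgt
Ifit3: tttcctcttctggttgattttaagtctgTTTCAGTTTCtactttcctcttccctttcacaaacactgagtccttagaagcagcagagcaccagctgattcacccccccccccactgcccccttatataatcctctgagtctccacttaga

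**Figure D4:**
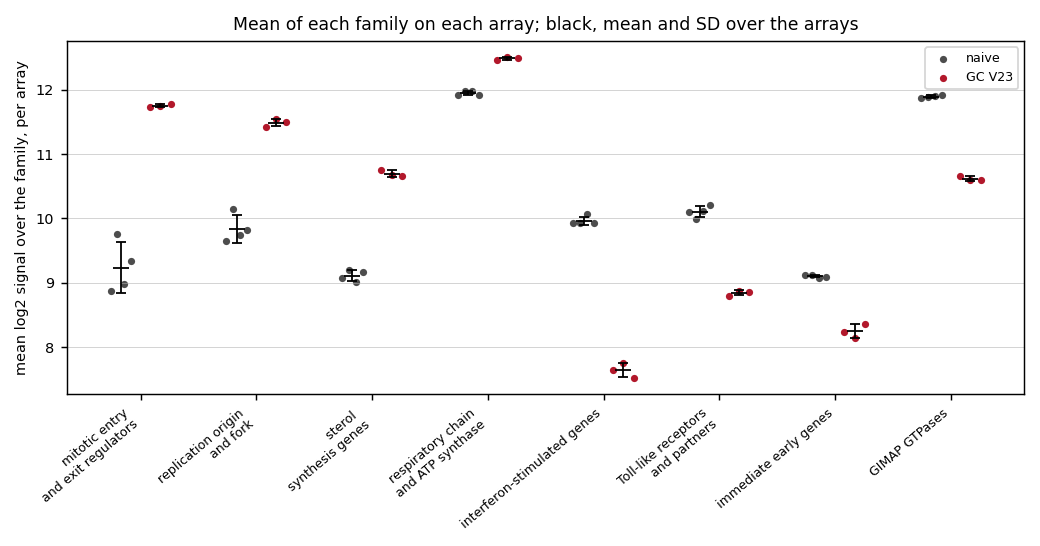
Mean log2 signal over the tested members of 8 gene families on each of 4 naive arrays (grey) and 3 GC V23 arrays (red), with the mean and SD over arrays in black. The V23 arrays lie above every naive array for mitosis, replication, sterol and respiratory genes and below every naive array for interferon-stimulated, Toll-like receptor, immediate early and GIMAP genes.

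Innate sensing genes were lower too. Of 18 Toll-like receptor genes and partners 12 fell and none rose (median -0.84). Tlr7, the receptor for single-stranded RNA, was at 10.32, 9.96, 10.02 and 10.18 in naive cells and at 4.02, 5.29 and 5.79 in V23 cells (-5.09 ± 0.38). Tlr1, a lipopeptide receptor, was at 12.90, 12.87, 12.89 and 12.85 in naive cells and at 11.25, 11.23 and 11.17 in V23 cells (-1.66 ± 0.09), and the adaptor kinase Irak2 fell by 2.03 (± 0.15). All 8 tested GIMAP GTPases, which act in lymphocyte survival, fell, with a median of -1.04. Gimap4 was at 13.24, 13.30, 13.11 and 13.14 in naive cells and at 11.17, 10.95 and 10.98 in V23 cells (-2.16 ± 0.10). In the GIMAP GTPases list 7 fell without naive arrays 2 and 4.

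Receptors that place B cells in the spleen fell more often than they rose, with S1pr2 among those that rose. Of 16 lipid and nucleotide sensing receptors 10 fell (62.5%, beside 19.7% of all genes), with a median of -1.18. In that list 3 rose (18.8%, beside 18.2%, so near the background). Of 11 chemokine receptors 5 fell (45.5%, beside 19.7%) and 1 rose (9.1%, beside 18.2%). S1pr1, which draws B cells out of tissue, was at 11.72, 11.39, 11.67 and 11.999 in naive cells and at 8.84, 8.45 and 8.47 in V23 cells (-3.11 ± 0.16), the reverse of S1pr2. Ccr7, the receptor for T zone chemokines, was at 11.43, 11.13, 11.29 and 11.15 in naive cells and at 6.86, 6.99 and 6.33 in V23 cells (-4.52 ± 0.55). Gpr183, an oxysterol receptor of the outer follicle, was at 10.62, 10.66, 11.05 and 10.87 in naive cells and at 8.27, 8.36 and 7.64 in V23 cells (-2.71 ± 0.19). Ackr3, a chemokine scavenger of marginal zone B cells, (-4.48 ± 0.23), the chemokine receptor Ccr6 (-3.07 ± 0.27), the acid sensor Gpr65 (-1.71 ± 0.10) and the lysophosphatidic acid receptor Lpar6 (-2.24 ± 0.13) fell as well. Cxcr5, the follicular homing receptor, changed less, from 13.10, 13.06, 13.13 and 12.99 to 12.31, 12.41 and 12.35 (-0.71 ± 0.10). For Cxcr4, the dark zone receptor, the groups overlapped: 12.28, 12.65, 12.33 and 11.21 in naive cells, where array 4 was low, and 12.69, 12.67 and 12.48 in V23 cells (0.50 ± 0.30, adjusted p = 0.234). The chemokine receptor that rose, Ccr9 (1.94 ± 0.47), was dim, and its probe sets disagreed (-0.99, -2.40 and -0.74 against 1.24).

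Adhesion and guidance genes followed no single direction. Itgb7 (11.76, 11.66, 11.57 and 11.85 in naive, 8.95, 8.19 and 8.64 in V23 cells, -3.12 ± 0.18) and its partner Itga4 (-2.52 ± 0.15), which form the gut-homing integrin, fell. Of 15 integrins and selectins 5 rose (33.3%, beside 18.2% of all genes) and 4 fell (26.7%, beside 19.7%). Itga6 (1.11 ± 0.20) and Cd44 (0.63 ± 0.11) were among those that rose. Nrp2, a semaphorin coreceptor, fell by 2.25 (± 0.15) and Plxnb2 rose, as given above. In the SLAM family and tetraspanins 11 of 16 fell and 2 rose. Cd2, an adhesion receptor, was at 11.95, 11.86, 11.86 and 11.85 in naive cells and at 9.25, 9.34 and 9.06 in V23 cells (-2.66 ± 0.11), and Slamf7 rose by 1.75 ± 0.22. Without naive arrays 2 and 4, 7 genes of the SLAM family and tetraspanins list fell. Among RGS proteins 3 of 12 fell (25.0%, beside 19.7% of all genes, so near the background), including Rgs10 (-0.99 ± 0.11) and Rgs14 (-0.79 ± 0.08), and Rgs4, which rose by 0.77 ± 0.14, had another probe set at -1.25.

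Signalling below the B cell receptor changed gene by gene, with 5 of 20 members higher and 11 lower (6 and 6 after centring). Those shares were 25.0% and 55.0%, beside 18.2% and 19.7% of all genes. Malt1, a scaffold of the NF-kB branch, was at 11.75, 11.83, 11.61 and 11.44 in naive cells and at 10.26, 10.51 and 10.18 in V23 cells (-1.34 ± 0.13), and the Src kinase Fyn was at 9.15, 9.41, 9.06 and 9.29 in naive cells and at 10.65, 10.67 and 10.43 in V23 cells (1.35 ± 0.11). Among 14 inhibitory receptors 9 fell and none rose (median -0.94). Cd72, a coreceptor that dampens B cell receptor signals, was at 13.22, 13.26, 13.32 and 13.20 in naive cells and at 12.02, 11.76 and 11.76 in V23 cells (-1.40 ± 0.11), and the paired immunoglobulin-like receptor Pirb fell by 2.73 (± 0.16). Among 18 phosphatases 9 fell and 3 rose, and Ptpn22, which restrains receptor signalling, was at 12.62, 12.23, 12.29 and 11.55 in naive cells and at 7.22, 6.90 and 7.42 in V23 cells (-4.99 ± 0.25). Ptprj, a receptor phosphatase, fell by 3.05 (± 0.17). In the PI3K and FOXO list 5 of 21 rose (23.8%, beside 18.2% of all genes) and 8 fell (38.1%, beside 19.7%), with 5 lower after centring. The kinase subunit Pik3cg was higher (1.19 ± 0.08), and Pik3ip1, a PI3K inhibitor (-3.19 ± 0.28), and Foxo3 (-1.89 ± 0.14) were lower.

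NF-kB and immediate early genes lay lower in V23 cells. Of 15 NF-kB subunits and inhibitors 8 fell and none rose (median -0.40), with the inhibitor Nfkbie at 12.47, 12.49, 12.49 and 12.33 in naive cells and 11.05, 10.97 and 10.89 in V23 cells (-1.47 ± 0.09), and the alternative pathway subunits Nfkb2 (-0.96 ± 0.10) and Relb (-0.95 ± 0.11). Among 16 immediate early genes 11 fell and 2 rose (median -0.71). Nr4a1, which responds to antigen receptor signals, was at 10.61, 10.38, 10.84 and 10.45 in naive cells and at 8.61, 8.49 and 8.26 in V23 cells (-2.12 ± 0.14), and Ier5 fell by 1.41 (± 0.08). The 2 that rose were Egr1 and Egr2 (1.15 and 0.97, named after their values were seen), while Egr3 fell by 1.84 (± 0.14), a call lost with the mean of its probe sets (-0.89, adjusted p = 0.112). Genes induced by handling overlap with this list and differed within the naive group: the mean of the handling stress list was 9.63, 9.89, 9.67 and 8.92 on the naive arrays and 8.63, 8.56 and 8.80 on the V23 arrays. In the marker: handling stress list 6 of 12 fell, and 10 fell without naive array 4. The heat shock gene Hspa1b was at 10.11, 11.76, 10.50 and 7.25 in naive cells and at 7.45, 6.97 and 7.64 in V23 cells (-2.55 ± 0.90, adjusted p = 0.0541; without naive array 4, -3.43 and 0.00098). Of the immediate early genes 11 fell without naive array 4 as with it. Naive array 4 was the naive array nearest the V23 arrays on the handling stress list, so leaving it out cannot show the part of handling. The part of handling in the immediate early genes was not tested.

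Among 20 cytokine receptors 11 fell and 3 rose (median -0.90). Il10rb, a chain shared by receptors of the interleukin-10 family, was at 11.76, 11.50, 11.95 and 11.95 in naive cells and at 8.57, 8.52 and 8.54 in V23 cells (-3.24 ± 0.14, adjusted p = 2.6e-06), and its partner Il10ra fell by 2.37 (± 0.13). The receptors for interleukin-4 and interleukin-21, which act in the GC, were among those that rose: Il4ra (0.78) and Il21r (0.91), both named after their values were seen. Of 20 JAK, STAT and SOCS genes 11 fell and 1 rose (6 and 2 after centring). The feedback inhibitor Socs5 fell by 3.41 (± 0.24), Stat6, which relays interleukin-4, by 0.85 (± 0.09), and Socs1 rose by 1.23 ± 0.25. The JAK, STAT and SOCS genes list had 7 lower without naive arrays 2 and 4. In the TNF and costimulation list 6 of 19 fell (31.6%, beside 19.7% of all genes) and 2 rose (10.5%, beside 18.2%). The ligands Icosl (-1.81 ± 0.18) and Cd274, known as PD-L1 (-1.80 ± 0.11), were lower. Of the TNF superfamily and costimulation list 3 fell without naive arrays 2 and 4, where 2671 of all 17204 genes did.

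Survival genes of the BCL2 family moved both ways, with 6 of 14 higher and 5 lower. Beside the fall of Bcl2, the antiapoptotic Bcl2l1 was at 8.66, 8.80, 8.62 and 9.11 in naive cells and at 9.65, 10.04 and 9.82 in V23 cells (1.04 ± 0.15), and the proapoptotic Bad (1.45 ± 0.13), Bak1 (1.42 ± 0.11) and Bmf (1.08 ± 0.10) rose. Among caspases and regulators 3 of 15 rose and 5 fell (20.0% and 33.3%, beside 18.2% and 19.7% of all genes), a split that turned to 5 and 2 after centring. The caspase inhibitors Cflar (-1.04 ± 0.10) and Birc3 (-0.77 ± 0.12) fell. Xiap fell on its brightest probe set (-0.47 ± 0.11), and the mean of its probe sets was 0.19.

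Transcription factors of B cell fate rose in 5 of 21 cases (23.8%, beside 18.2% of all genes) and fell in 8 (38.1%, beside 19.7%), or 5 after centring. Irf4, a factor of activation and plasma cell fate, was at 11.09, 11.20, 11.03 and 11.15 in naive cells and at 9.46, 9.33 and 9.05 in V23 cells (-1.84 ± 0.13). Prdm1, the plasma cell repressor, was at 7.37, 7.40, 6.54 and 7.74 in naive cells and at 7.41, 6.86 and 7.41 in V23 cells, so the groups overlapped (-0.03 ± 0.27, adjusted p = 0.936). Pax5, the B lineage factor, was at 10.73, 10.29, 10.87 and 10.37 in naive cells and at 9.42, 8.89 and 8.87 in V23 cells (-1.51 ± 0.25). Kruppel-like factors fell in 9 of 13 cases with none higher (median -0.74), including Klf3, at 11.86, 11.9997, 11.95 and 11.74 in naive cells and 7.53, 6.88 and 7.07 in V23 cells (-4.73 ± 0.17), though a further Klf3 probe set lay the other way. Antiproliferative BTG, TOB and ZFP36 genes fell in 7 of 8 cases (4 after centring), with the translation inhibitor Pdcd4 lowest at -2.60 ± 0.23. Myc was lower in V23 cells, at 10.23, 10.31, 10.16 and 9.86 in naive and 9.49, 9.50 and 9.02 in V23 cells (-0.80 ± 0.18, adjusted p = 0.00665), and in its network 1 of 12 rose, the late cell cycle member Mxd3 (1.15 ± 0.14), and 5 fell. In the MYC network list 3 fell after centring and without naive array 1, naive array 3 or V23 array 2.

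Chromatin regulators divided between paralogues. Of 22 Polycomb genes 9 rose and 7 fell. The core PRC2 members Ezh2 and Suz12 (1.12 ± 0.09) rose, while Ezh1 (-1.37, named after its value was seen), the PRC2 partner Jarid2 (11.64, 11.45, 11.42 and 11.52 in naive, 9.84, 9.48 and 9.49 in V23 cells, -1.90 ± 0.12) and the PRC1 member Bmi1 (-1.79 ± 0.13) fell. The PRC1 reader Cbx7 fell by 2.03 (± 0.13), a call lost with the mean of its probe sets (-0.34, adjusted p = 0.462). Of 15 DNA methylation genes 8 rose and 4 fell. Dnmt1, which maintains methylation at replication, was at 10.91, 11.33, 10.89 and 11.005 in naive cells and at 13.05, 12.99 and 12.89 in V23 cells (1.94 ± 0.13), whereas the de novo enzymes Dnmt3a (10.20, 10.03, 10.35 and 10.31 in naive, 8.05, 8.35 and 7.94 in V23 cells, -2.11 ± 0.19) and Dnmt3b (-1.10 ± 0.08) fell. Of 16 Notch pathway genes 10 fell (62.5%, beside 19.7% of all genes) and 3 rose (18.8%, beside 18.2%, so near the background). Among those that fell were Notch2, the receptor for marginal zone fate (-2.93 ± 0.11), and its target Hes1 (-3.13 ± 0.13). A further Notch2 probe set lay the other way, and 1 gene of the Notch pathway list rose without V23 array 1.

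RNA signals of most class I presentation genes were lower, and class II genes changed less. Of 10 class I genes 7 fell and 1 rose (median -0.62), with the light chain B2m at 14.26, 14.27, 14.39 and 14.30 in naive cells and 13.62, 13.70 and 13.57 in V23 cells (-0.67 ± 0.08) and the class I transactivator Nlrc5 at -2.87 ± 0.23. The class II chain H2-Aa was at 14.45, 14.59, 14.64 and 14.60 in naive cells and at 14.49, 14.37 and 14.24 in V23 cells, and the groups overlapped (-0.20 ± 0.10, adjusted p = 0.15). The invariant chain Cd74 differed by -0.22 ± 0.11 (adjusted p = 0.162). With an intensity trend and robust moderation in limma, both H2-Aa (adjusted p = 0.039) and Cd74 (adjusted p = 0.0472) were called lower. In the class II list 5 of 14 fell (3 after centring) and none rose, including Ctss, the protease that trims the invariant chain (-1.03 ± 0.09), and H2-Oa, part of the inhibitor of peptide loading (-0.53 ± 0.10).

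Genes that build or cap the sugars used in the sort also changed. C1galt1, which makes the core galactose structure bound by PNA, was at 8.40, 8.12, 8.28 and 8.46 in naive cells and at 10.77, 11.25 and 11.27 in V23 cells (2.78 ± 0.16, adjusted p = 7.86e-06). St3gal1, a sialyltransferase that caps it, was at 9.17, 9.05, 8.76 and 8.36 in naive cells and at 6.41, 6.31 and 6.61 in V23 cells (-2.39 ± 0.28), and Cmah, whose loss exposes the GL7 epitope, fell by 2.31 (± 0.16). Since V23 cells were sorted as PNA+, these genes bear on the property used for selection. Of 20 glycosylation genes 4 rose (20.0%, beside 18.2% of all genes, so near the background) and 9 fell (45.0%, beside 19.7%). In the glycosylation genes of PNA and GL7 list 2 rose without naive array 3 or V23 array 1. Adenosine handling changed as well, with Nt5e, the CD73 ectoenzyme (7.57, 8.34, 8.06 and 7.99 in naive, 10.09, 10.08 and 10.13 in V23 cells, 2.11 ± 0.16), and Adk, adenosine kinase (2.35 ± 0.15), higher and Entpd1, the CD39 ectoenzyme (-1.84 ± 0.11), lower.

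V23 cells were set against GC B cells of the higher-affinity B1-8 line by the direct contrast of the 3 arrays of each line, since both comparisons with naive cells share the naive arrays. Of 17204 genes 4 (0.0233%) passed the threshold, 3 higher (0.0174%) and 1 lower (0.00581%) in V23 cells, and 1328 (7.72%) had an unadjusted p under 0.05. Asns, asparagine synthetase, was at 11.19, 11.12 and 11.36 in V23 cells and at 10.07, 10.14 and 10.04 in B1-8 cells (1.14 ± 0.10, adjusted p = 0.0369), and at 8.89, 9.08, 8.85 and 8.88 in naive cells. Cd2 was lower in V23 cells, at the levels given above, than in B1-8 cells at 10.28, 10.24 and 10.57 (-1.15 ± 0.12, adjusted p = 0.0369). Cck (2.24 ± 0.23, adjusted p = 0.0369) and Zcchc14 (1.97 ± 0.21, adjusted p = 0.0457) were higher in V23 cells but dim, with all B1-8 values under log2 4. With values under log2 4 raised to 4, the differences were 1.47 and 1.36, and neither gene passed (adjusted p = 0.0996 and 0.0914). The count was not stable: 0 genes passed when any naive array, V23 array 1 or B1-8 array 1 or 2 was left out, 1 without B1-8 array 3, 11 without V23 array 2 and 2 without V23 array 3, with 984 to 1671 genes at an unadjusted p under 0.05 in these limma fits. Of 19 tRNA synthetases 10 had an unadjusted p under 0.05, all higher in V23 cells, beside 7.72% of all genes, and none passed after adjustment. The tRNA synthetase means did not overlap, at 11.23, 11.29 and 11.30 in V23 cells against 11.04 ± 0.04 (SD, n = 3) in B1-8 cells, and the largest difference was that of Aars (0.61 ± 0.15, adjusted p = 0.394). This was not particular to tRNA synthetases. An unadjusted p under 0.05 was also held by 4 of 8 GIMAP GTPases, 4 of 10 class I genes and 5 of 16 lipid and nucleotide sensing receptors, all lower in V23 cells. So it was for 5 of 14 inhibitory receptors (1 higher) and 5 of 19 sterol synthesis genes (all higher), and none passed after adjustment.

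**Figure D5:**
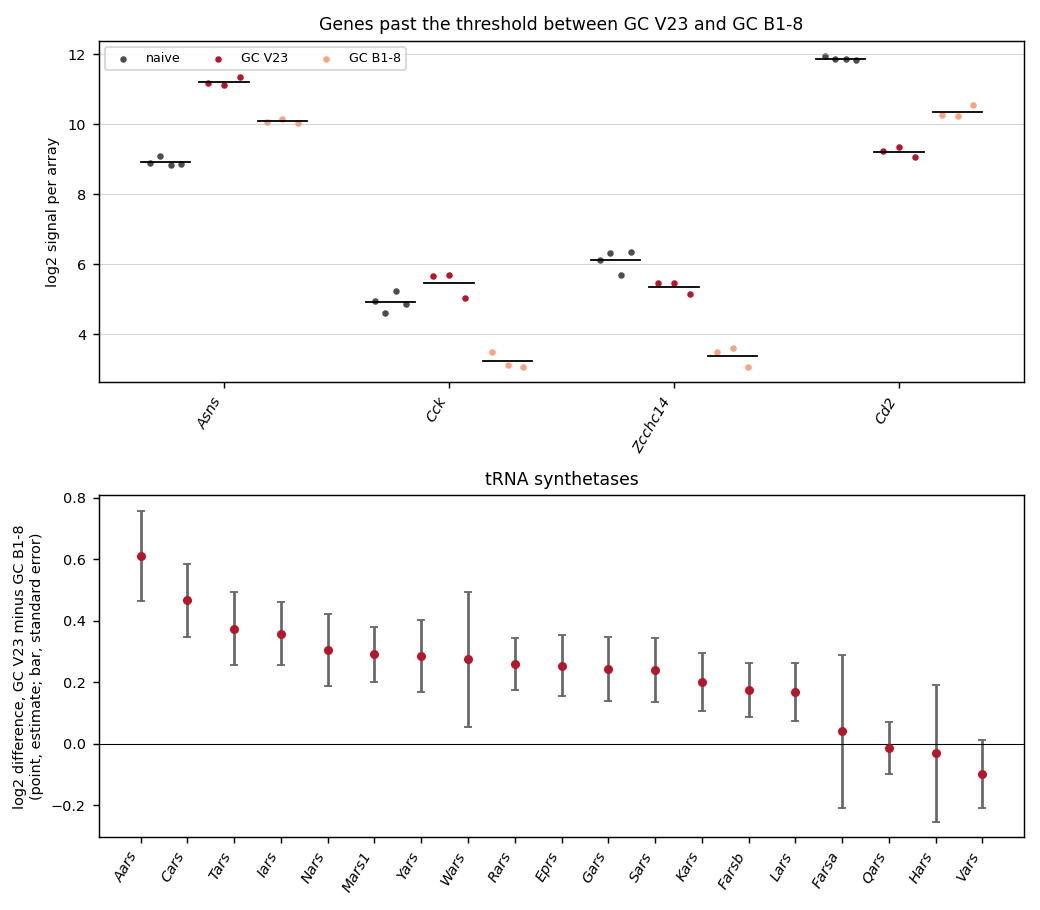
Top, log2 signal of the 4 genes past the threshold between GC V23 and GC B1-8 on each naive (grey), GC V23 (red) and GC B1-8 (orange) array, black bar, group mean. Bottom, log2 difference between GC V23 and GC B1-8 with its standard error for 19 tRNA synthetases, of which none passed after adjustment; Aars lies highest at 0.61.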

How the data were processed

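Expression was measured on 10 arrays, and 7 of them (3 GC V23, 4 naive) form the comparison reported here; the 3 GC B1-8 arrays entered the shared estimate of the spread. The deposited values are log2 signals of probe sets for each array. The submitters' processing notes name GCRMA, without a version, but the unlogged values averaged 500 on every array after trimming 2% at each end, as MAS5 scaling would give, and values ran from -4.29 to 14.9. They were used as deposited. No coordinates or build are stated for the arrays.

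Of 45101 probe sets, 34958 carry 1 gene symbol, 932 several and 9211 none in the platform annotation. The brightest single-symbol probe set was kept for each of 18194 symbols, and 17204 genes above log2 4 on at least 3 arrays were tested with limma 3.58.1 (R 4.3.3), with 3 group means, empirical Bayes moderation (7 residual and 1.46 prior degrees of freedom) and Benjamini-Hochberg adjustment within each comparison. Arrays give no counts, so their number limits precision; genes with a mean under log2 6 had a median residual SD of 0.889, and those above log2 10 one of 0.118. In data simulated for V23 against naive, 200 of 17204 genes were changed, 50 at each fold. The fit recovered 20%, 52%, 62% and 78% of 1.5-, 2-, 4- and 8-fold changes, with 7 false calls. In the measured data 37.9% of genes were called, and the adjustment depends on that share. The simulated recovery therefore cannot be carried over to the measured data.

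The members and the 70 lists (59 families, 11 marker lists) were chosen with earlier results of these data known. Of 1171 distinct list genes 1075 were tested, 5 failed the filter and 91 had no single-symbol probe set. The text names the 12 genes with the highest and the 12 with the lowest differences (values under log2 4 raised to 4) among called genes without overlap and not on probe sets ending in _x_at, up to 4 members per list with the smallest p and any sole call in a direction, key genes listed by symbol, the called V23 against B1-8 genes (filled up by p) and the highest and lowest marker of each list. Others are marked as named after their values were seen, as are Cdk1, Ifit1, Ifit3, S100a8, Bcl2l1, Slc2a1, Xbp1, Dnmt3a, H2-Aa and Cd74. Probe sets ending in _x_at may share sequence with other genes, and those used for Kif22, Cdk4, Polh, Shmt2, Tpi1, Rpl37, Ifnar2 and Adk are of that kind. Alternatives covered the filter, probe set choice, scaling, moderation, weights, samples in the fit, a replicate block, a 2-fold minimum and each array left out, the B1-8 arrays as an addition chosen after seeing the data. The replicate block was fitted without naive array 4, which has no numbered partner.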

Additional observations from a re-analysis of the deposited data

Results flagged for a closer look

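Among 4 naive arrays, 1 array stood apart from the other 3 (Dixon's ratio above its 95% critical value) for 20 of the 307 named genes and 2 family means, where chance flags about 1 in 20. Naive array 4 was the separate array for Tdrd7 (9.25), Klf2 (11.74), Msmo1 (9.62), Slamf6 (11.95), Nfkbie (12.33), Stat6 (12.19), Mlxip (11.12), Prf1 (7.49), Xbp1 (12.45) and the mean of the tRNA synthetases (10.64). Naive array 1 was separate for Brip1 (6.32), Taf1d (11.23), Cd2 (11.95) and Flt3 (5.56), naive array 2 for Polh (9.94), Icosl (11.89), Hes1 (9.39) and Asns (9.08), and naive array 3 for Pml (11.26), Yars (9.23), Ppbp (6.64) and the mean of the interferon-stimulated genes (10.06). Apart from Prf1, the naive and V23 arrays did not overlap for any of these genes.

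The V23 and B1-8 lines differed in the direct contrast for Asns (1.14), Cck (2.24), Zcchc14 (1.97) and Cd2 (-1.15). Cck and Zcchc14 were under log2 4 on all B1-8 arrays and did not pass once such values were raised to 4.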

How the results depend on the processing

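With a 2-fold minimum added, 1168 genes were higher and 1546 lower. Leaving out each of the 10 arrays in turn (the 3 B1-8 arrays added after seeing the data) gave 2587 to 3176 higher and 2947 to 3348 lower genes against naive, and 0 to 11 genes against B1-8. The B1-8 count was 17 with an intensity trend and robust moderation, 2 with median centring, and 0 after averaging the probe sets of a gene, after fitting only the 2 groups compared, under the replicate block, and with naive arrays 2 and 4 both left out; in those 4 limma fits 1239, 1089, 1265 and 1286 genes had an unadjusted p under 0.05. The replicate numbers did not pair the samples (correlations of deviations 0.0016, 0.0143 and 0.0032). The replicate block, fitted without naive array 4, gave 2919 higher and 2906 lower genes. Averaging the probe sets of a gene turned Ccnd3 (-0.51), Mrps14 (-0.18), Ern1 (0.16), Atg7 (-0.0638), Ccr9 (-0.19), Xiap (0.19), Mga (0.11) and Hspb1 (-0.031); the cause was not tested beyond the opposite probe sets named above. Of 289 named genes called against naive, 0 to 17 per alternative lost the call while keeping their direction. With averaged probe sets 16 did so, and the 8 genes that turned lost the call as well. No other of the 289 turned direction, and 0 to 6 named genes gained a call per alternative. The residual spread was wider for genes below log2 6 than for those above log2 10.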
